A study of Mus musculus with 10 samples.

Results

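The genes described here make and tune the calcium cycle of the sarcoplasmic reticulum, the calcium store of heart muscle cells. They are Ryr2, Casq2, Trdn and Hrc (release), Atp2a2, Pln and Sln (uptake), Slc8a1 (extrusion), and Camk2d and Ppp1r1a (regulation), chosen by symbol. Each of the 10 matched exactly 1 Ensembl identifier among the 37583 gene rows of the deposited counts, and all 10 had enough reads to be tested. The series, on atrial fibrillation under ibrutinib, holds 10 poly(A) RNA-seq libraries from left atria of adult mice; ibrutinib is a cancer drug that blocks Bruton's tyrosine kinase. Ibrutinib-treated animals (IBR) and vehicle-treated animals (CTL) gave 3 libraries per group. Animals labelled as cardiac Csk knockouts (KO) and untreated wild-type animals (WT) gave 2 libraries per group. The product of Csk is C-terminal Src kinase, a brake on Src family kinases. The labels give no strain, age in weeks, drug dose, duration or Cre driver, and they do not tie each replicate to an animal of its own. P-values therefore reflect only how far these libraries spread, which may be technical.

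In each heartbeat a small inflow of calcium opens the ryanodine receptor RyR2 in the reticulum membrane, and the released calcium starts contraction. The muscle relaxes when the pump SERCA2, encoded by Atp2a2, returns calcium to the store and the sodium-calcium exchanger removes the rest from the cell. Phospholamban and sarcolipin hold the pump back, and sarcolipin is known as an atrial protein. Calcium leaking from RyR2 during rest is a known trigger of atrial arrhythmia.

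Libraries held 14907331 to 19960947 counts on genes. Csk, the targeted gene, stood at 24.7 and 35.5 CPM (counts scaled to a common library size after TMM normalization, as edgeR does) in the libraries labelled KO, KO26 and KO337, against 18.3 and 17.8 CPM in WT, so it did not follow the genotype label (log2 0.74, SE 0.18, adjusted p = 0.0608 by edgeR's quasi-likelihood test). A deletion of part of the gene, or in heart muscle cells alone, need not show in such counts, and these libraries are called the libraries labelled KO. Over the 10 libraries 9 atrial muscle markers summed to 16445 to 51079 CPM, and the atrial light chain Myl7 ranged from 2044 to 8990 CPM. A list of 7 ventricular markers summed to 205 to 909 CPM, of which Myh7 made up 78.1 to 856, Myl3 5.60 to 173 and Kcnip2 18.0 to 44.7 CPM, while the ventricular light chain Myl2 reached at most 8.62 CPM and Irx4 0.144 CPM. Of 12 cardiomyocyte markers 11 were abundant, and Tnnc1 was listed at 0 to 0.116 CPM. The other troponin genes of the list, Tnnt2 and Tnni3, ranged from 3018 to 10762 and from 961 to 5111 CPM. Whether reads of Tnnc1 were lost in counting was not tested. A list of 10 skeletal muscle markers summed to 447 to 2406 CPM, nearly all from Ckmt2 (286 to 1689 CPM), which heart muscle also expresses, and Myl1 (150.5 to 695 CPM). Tnni2 reached 18.4 CPM, and Myh1, Myh2, Myh4 and Pvalb at most 0.317 CPM. The library KO337 stood apart from KO26, and results are given with and without each.

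Per length of transcript the pump was the most abundant of the 10 genes and the phosphatase inhibitor gene Ppp1r1a the least. In CPM per kilobase of exon, Atp2a2 averaged 4839 in IBR, 5145 in CTL, 2293 in the libraries labelled KO and 4198 in WT. Its inhibitors came next, with Sln at 1794, 1908, 739 and 1398 and Pln at 1538, 1521, 794 and 1266 CPM per kilobase in the same groups. Casq2, Hrc, Ryr2, Trdn, Slc8a1, Camk2d and Ppp1r1a followed in this order in all 4 groups. In CTL they stood at 614, 468, 102, 59.6, 15.4, 12.3 and 4.28 CPM per kilobase. The library values of neighbours in this order overlapped for Sln with Pln in IBR, CTL and the libraries labelled KO. They also overlapped for Slc8a1 with Camk2d in IBR and in the libraries labelled KO, for Casq2 with Hrc in WT and in the libraries labelled KO, and for Hrc with Ryr2 in the libraries labelled KO. Together the 10 genes took 3.85% to 4.29% of the gene counts in IBR, 3.89% to 4.26% in CTL, 3.3% and 1.64% in KO26 and KO337, and 3.95% and 3.84% in WT. Lengths are the union of annotated exons, which overstates the length of genes with many transcript forms such as Ryr2, Camk2d and Slc8a1.

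Ibrutinib left no called difference in these genes. By edgeR's quasi-likelihood test, 0 of 10 had an adjusted p under 0.05 (called, from here on) and 0 of 10 an unadjusted p under 0.05, where 0% and 5.52% of all 15364 tested genes did, and DESeq2 called 0 of 10 and 2 of all genes. Their log2 differences ran from -0.32 (Slc8a1) to 0.11 (Ryr2) with a median of -0.11, beside -0.03 over all genes, and 8 of 10 were negative, as were 55.2% of all genes. In the libraries labelled KO all 10 genes lay below both WT libraries, which 26.9% of all genes did. Their median log2 difference was -0.90, beside 0.01 over all genes. Ppp1r1a was the 1 gene called, 10 of 10 differences were negative, and 8 of 10 had an unadjusted p under 0.05. Over all genes 2.21% were called, 0.898% called lower, 49.2% had negative differences, and 25.7% had an unadjusted p under 0.05, with 12.4% lower. DESeq2 called 5 of the 10 genes, adding Atp2a2, Sln, Casq2 and Hrc, and 1830 of all genes, while edgeR fitted to only these 4 libraries called 0 of either. The plot of values by library shows both comparisons.

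**Figure D1:**
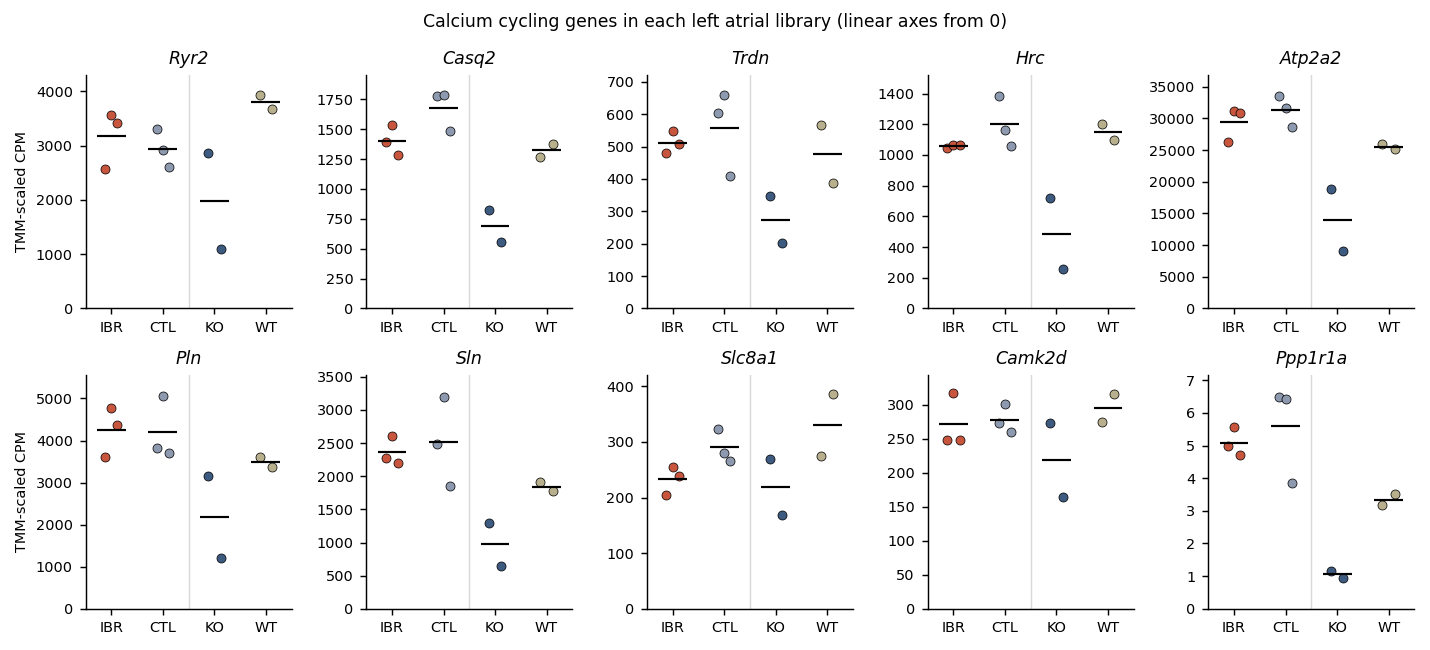
TMM-scaled CPM (vertical, linear from 0) of the 10 genes in each library, by group; points are libraries and bars are group means. The IBR and CTL points overlap for 9 genes and are apart for Slc8a1, IBR lower, and both KO points lie below both WT points for all 10 genes, with KO337 the lower in each.

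Genes of the release machinery showed no called difference with ibrutinib. In the libraries labelled KO they were lower, short of the threshold in the edgeR fit to all 10 libraries, while DESeq2 called Casq2 and Hrc. Ryr2, the release channel, had 2569, 3560 and 3414 CPM in IBR, against 3302, 2910 and 2604 CPM in CTL, and the groups overlapped. Its log2 difference was 0.11 (SE 0.31, adjusted p = 0.955). In KO26 and KO337 it had 2860 and 1101 CPM, against 3923 and 3678 CPM in WT. All of the KO values lay under the WT values, KO337 far under KO26, and the log2 difference was -0.94 (SE 0.38, adjusted p = 0.156). Casq2 encodes calsequestrin, the protein that binds calcium inside the store. Its values were 1393, 1535 and 1282 CPM in IBR, against 1773, 1785 and 1483 CPM in CTL. Only IBR2 reached into the CTL range, and the log2 difference was -0.26 (SE 0.19, adjusted p = 0.824), with a 95% interval of -0.67 to 0.15. The genotype comparison gave 823 and 558 CPM in KO26 and KO337, against 1269 and 1378 CPM in WT. Casq2 had the second smallest p of the 10 genes there, with a log2 difference of -0.94 (SE 0.23, adjusted p = 0.0601).

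Triadin, encoded by Trdn, ties calsequestrin to the release channel. Trdn had 480, 548 and 507 CPM in IBR, against 604, 659 and 410 CPM in CTL, so the IBR values lay inside the CTL range. KO26 and KO337 had 346 and 203 CPM, against 566 and 388 CPM in WT. The WT libraries themselves lay well apart, and KO26 was only a little under the lower of them. Trdn differed by -0.12 (SE 0.24, adjusted p = 0.931) with ibrutinib and by -0.80 (SE 0.30, adjusted p = 0.138) between genotypes, on the log2 scale. Hrc encodes the histidine-rich calcium binding protein of the store, which binds triadin and the pump. Values of Hrc were 1046, 1066 and 1063 CPM in IBR, against 1382, 1161 and 1057 CPM in CTL. The 3 IBR libraries were nearly equal and sat at the low end of CTL, with a log2 difference of -0.18 (SE 0.30, adjusted p = 0.92). In KO26 and KO337 Hrc had 718 and 254 CPM, against 1199 and 1095 CPM in WT. KO337 held 22.2% of the WT mean, the lowest share of the 10 genes in that library, and the log2 difference was -1.24 (SE 0.38, adjusted p = 0.0918).

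In the edgeR fit to all 10 libraries the pump and its inhibitors showed no called difference in either comparison. All 3 lay below WT in both libraries labelled KO, where DESeq2 called Atp2a2 and Sln, and 11.9% of all genes. Atp2a2 had 26260, 31133 and 30885 CPM in IBR, against 33596, 31662 and 28597 CPM in CTL. The groups overlapped, and the log2 difference was -0.09 (SE 0.28, adjusted p = 0.963), with a 95% interval of -0.70 to 0.53. In KO26 and KO337 the pump gene had 18822 and 9061 CPM, against 25969 and 25086 CPM in WT, a log2 difference of -0.87 (SE 0.34, adjusted p = 0.147). Pln encodes phospholamban, the inhibitor whose phosphorylation frees the pump. Its level was 3602, 4767 and 4359 CPM in IBR, against 3825, 5055 and 3707 CPM in CTL, with a log2 difference of 0.02 (SE 0.31, adjusted p = 0.994). KO26 and KO337 had 3165 and 1216 CPM of Pln, against 3618 and 3367 CPM in WT. KO26 was thus near WT and KO337 well under it, and the log2 difference was -0.67 (SE 0.38, adjusted p = 0.29). The exons of Pln overlap those of Cep85l on the other strand over 141 bases. They also overlap those of Gm47644, which has no row in the counts, over 1644 bases. Exons of Atp2a2 overlap those of Gm43361, likewise without a row and on the other strand, over 83 bases. Reads in these stretches cannot be assigned without strand. Sln encodes sarcolipin. It had 2279, 2611 and 2204 CPM in IBR, against 2494, 3203 and 1848 CPM in CTL, so that CTL spread wider than IBR and enclosed it. In KO26 and KO337 it had 1299 and 650 CPM, against 1907 and 1779 CPM in WT. Sln differed by -0.09 (SE 0.27, adjusted p = 0.963) with ibrutinib and by -0.92 (SE 0.34, adjusted p = 0.13) between genotypes, on the log2 scale.

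Slc8a1, the sodium-calcium exchanger gene, was the 1 gene of the 10 whose IBR and CTL libraries did not overlap. It had 204, 256 and 240 CPM in IBR, against 324, 280 and 266 CPM in CTL, each IBR library lying below each CTL library. The log2 difference was -0.32 (SE 0.20, adjusted p = 0.824), with a 95% interval of -0.76 to 0.13, and it was not called. Over all tested genes 7.55% had every IBR library below every CTL library, so 1 of 10 is near that share. In KO26 and KO337 it had 269 and 169 CPM, against 275 and 386 CPM in WT. KO26 lay just under the lower WT library, and the log2 difference was -0.59 (SE 0.25, adjusted p = 0.166). The exons of Slc8a1 overlap those of AC122399.1 over 296 bases and of Gm11096 over 8 bases, both on the other strand.

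Of the regulators, the kinase gene Camk2d differed least between genotypes and Ppp1r1a most. Camk2d encodes the main heart form of calcium/calmodulin-dependent kinase II, which phosphorylates RyR2 and phospholamban. It had 248, 317 and 248 CPM in IBR, against 273, 301 and 260 CPM in CTL, and 273 and 165 CPM in KO26 and KO337, against 274 and 315 CPM in WT. KO26 was within 1 CPM of the lower WT library, and only KO337 was clearly lower. The log2 differences were -0.03 (SE 0.19, adjusted p = 0.981) with ibrutinib and -0.43 (SE 0.24, adjusted p = 0.274) between genotypes. Ppp1r1a encodes an inhibitor of protein phosphatase 1, the enzyme that removes phosphate from phospholamban. It was a gene of few reads, with 20 and 21 counts in KO26 and KO337 and 64 and 56 counts in WT35 and WT338. These came to 1.16 and 0.951 CPM in KO26 and KO337, against 3.17 and 3.52 CPM in WT. KO26 and KO337 were close to each other here, at 34.7% and 28.4% of the WT mean. Ppp1r1a was 3.16-fold lower, with a log2 difference of -1.66 (SE 0.34, adjusted p = 0.0404). It was still called without CTL3 or without KO26, and not without any other single library, with adjusted p from 0.0598 to 0.18 and log2 differences from -1.74 to -1.54 in those 8 fits. With ibrutinib it had 5.00, 5.57 and 4.71 CPM in IBR, against 6.49, 6.41 and 3.86 CPM in CTL, and differed by -0.13 (SE 0.25, adjusted p = 0.927) on the log2 scale, the IBR values lying inside the CTL range.

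**Figure D2:**
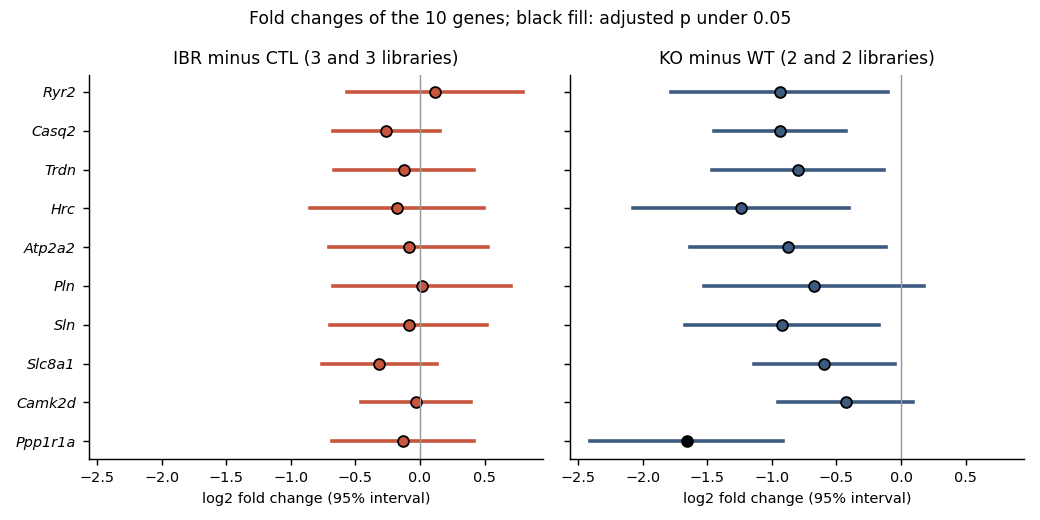
Log2 fold change (horizontal) with its 95% interval from edgeR's quasi-likelihood fit for IBR minus CTL (left) and KO minus WT (right), 1 row per gene. All 10 intervals include 0 on the left; on the right all 10 points are negative, the intervals of Pln and Camk2d include 0, and Ppp1r1a is the 1 gene filled black for an adjusted p under 0.05.

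The genotype differences were unequal in the 2 libraries labelled KO, and most cardiomyocyte and atrial muscle markers were lower there too. KO337 was lower than KO26 for 10 of 10 genes. As a share of the WT mean the median gene of the 10 stood at 73.1% in KO26 and 35.4% in KO337. The 11 tested cardiomyocyte markers, sarcomere and oxygen-binding genes such as Myh6, Tnnt2 and Mb, stood at a median of 69.1% in KO26 and 38.5% in KO337, and 11 of 11 were lower in KO337. Their summed level was 58613 and 31433 CPM in KO26 and KO337, against 78079 and 73989 CPM in WT. Fibroblast markers summed to 5827 and 17332 CPM in KO26 and KO337, against 5555 and 5099 CPM in WT, and 10 of 10 had positive differences. Macrophage and leukocyte markers summed to 866 and 3400 CPM in KO26 and KO337, against 494 and 633 CPM in WT, again with 10 of 10 positive and 2 called higher. These signs are of group means. In KO26 itself Cd14 stood at 35.6% and Cd68 at 86.7% of the WT mean, and the fibroblast marker Gsn at 97.0%. No tested marker of either list was at 0. Of 9 atrial muscle markers 8 had negative differences, while Dkk3 stood at 128.7% and 118.5% of the WT mean in KO26 and KO337. The ventricular markers were split, positive in 3 of 6 tested, at a median of 126.5% in KO26 and 137.6% in KO337. Skeletal muscle markers were negative in 4 of 6 tested, at a median of 107.1% in KO26 and 60.75% in KO337. Not all other lists rose. Epicardial and mesothelial markers were negative in 6 of 6, at a median of 93.7% in KO26 and 39.7% in KO337. Endothelial markers were positive in 6 of 8 and smooth muscle and pericyte markers in 7 of 8. In bulk tissue fewer muscle cells and less of a transcript per muscle cell cannot be told apart, and the part of these markers in the result was not tested.

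**Figure D3:**
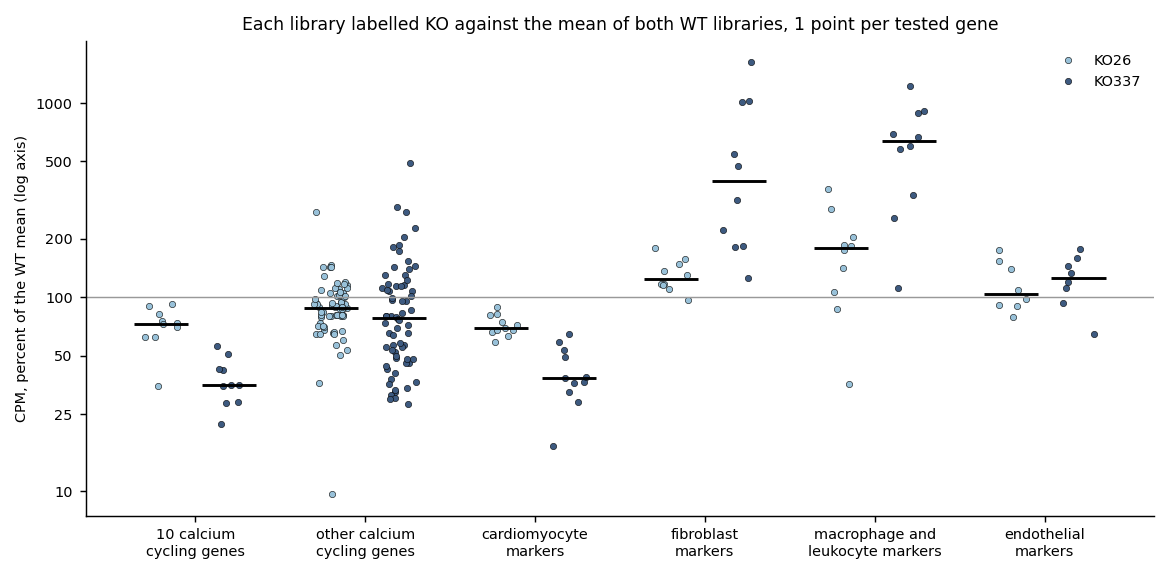
CPM of each tested gene in KO26 (light) and KO337 (dark) as a percent of the mean of both WT libraries (vertical, log axis), by gene list; bars are medians. The 10 calcium cycling genes and the cardiomyocyte markers lie below 100 in both libraries and lower in KO337, at medians of 35.4% and 38.5% there, while the fibroblast and leukocyte medians lie above 100.

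Without KO337 the median log2 difference of the 10 genes was -0.47 and 0 of 10 were called, where 0.348% of all genes were. Without KO26 it was -1.52 and 10 of 10 were called, where 3933 of 16181 genes (24.3%) were. Each of these fits has 1 library labelled KO, which is assumed to vary like the libraries of the other groups, so neither count is a replicated result. Scaled to the summed counts of the cardiomyocyte markers, which moved the median of all genes to 0.89, the median of the 10 genes was -0.14. On that scale Pln (0.01), Slc8a1 (0.19) and Camk2d (0.35) had positive log2 differences and the other 7 negative ones. Hrc, at -0.57 with an adjusted p of 0.0416, was then called, and Ppp1r1a, at -0.83 with an adjusted p of 0.105, was not. On that scale 47.2% of all genes were called, 98.9% of them higher. Relative to this sum, Hrc and Ppp1r1a were thus the lowest of the 10 in the libraries labelled KO. Myh6 alone made up 28582 of the 58613 CPM of the sum in KO26. With TMM the 11 tested markers themselves ran from -1.40 (Ckm) to -0.38 (Mb), a range that holds the -1.24 of Hrc.

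**Figure D4:**
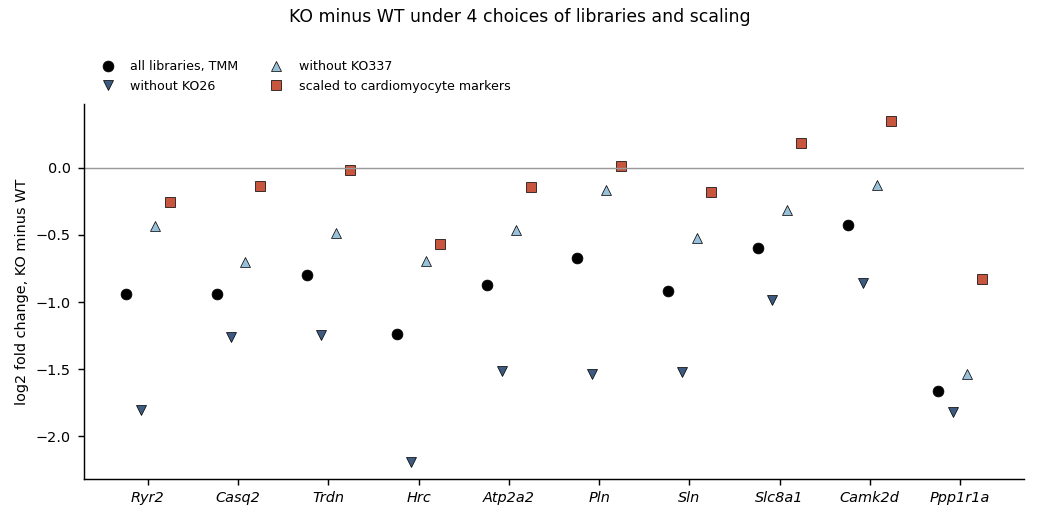
Log2 fold change of KO minus WT (vertical) for the 10 genes with all libraries, without KO26, without KO337 and with scaling to cardiomyocyte markers. Values without KO26 are the lowest and those scaled to the markers the highest for every gene, and Ppp1r1a and Hrc are the lowest after that scaling.

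Ratios of counts within a library do not depend on how libraries are scaled. The ratio of Sln to Atp2a2 was 0.0868, 0.0839 and 0.0714 in IBR, against 0.0742, 0.101 and 0.0646 in CTL. It was 0.069 and 0.0717 in KO26 and KO337, against 0.0734 and 0.0709 in WT, although both genes differed about 2-fold in level between KO26 and KO337. The mean log2 ratio in the libraries labelled KO was -3.83, against -3.79 in WT, a difference of -0.04 that was close to the SD within either group (0.039 and 0.0358, n = 2 each). Pln to Atp2a2 was 0.137, 0.153 and 0.141 in IBR, against 0.114, 0.16 and 0.13 in CTL. In KO26 and KO337 it was 0.168 and 0.134, against 0.139 and 0.134 in WT. Over all 10 libraries the count ratio to the pump gene ran from 0.0646 to 0.101 for Sln and from 0.114 to 0.168 for Pln. The ratio of Slc8a1 to Atp2a2 was lower in each IBR library, at 0.00776, 0.00821 and 0.00776, against 0.00964, 0.00885 and 0.00931 in CTL. Its log2 difference of -0.23 had p = 0.1 in an exact two-sided permutation test, the smallest p that 3 against 3 libraries allow, and an adjusted p of 1 over the 10 tests of 5 ratios. In the libraries labelled KO it was 0.0143 and 0.0186, against 0.0106 and 0.0154 in WT. Casq2 to Ryr2 was 0.542, 0.431 and 0.376 in IBR, against 0.537, 0.613 and 0.57 in CTL, with a log2 difference of -0.37 (exact permutation p = 0.2). It was 0.288 and 0.507 in KO26 and KO337, on either side of 0.323 and 0.375 in WT. The last ratio, Ppp1r1a to Atp2a2, was 6.17e-05 and 0.000105 in KO26 and KO337, against 0.000122 and 0.00014 in WT. It had a log2 difference of -0.70 in the libraries labelled KO (exact permutation p = 0.333, the smallest that 2 against 2 allow). With ibrutinib it differed by -0.01 (exact permutation p = 0.9).

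**Figure D5:**
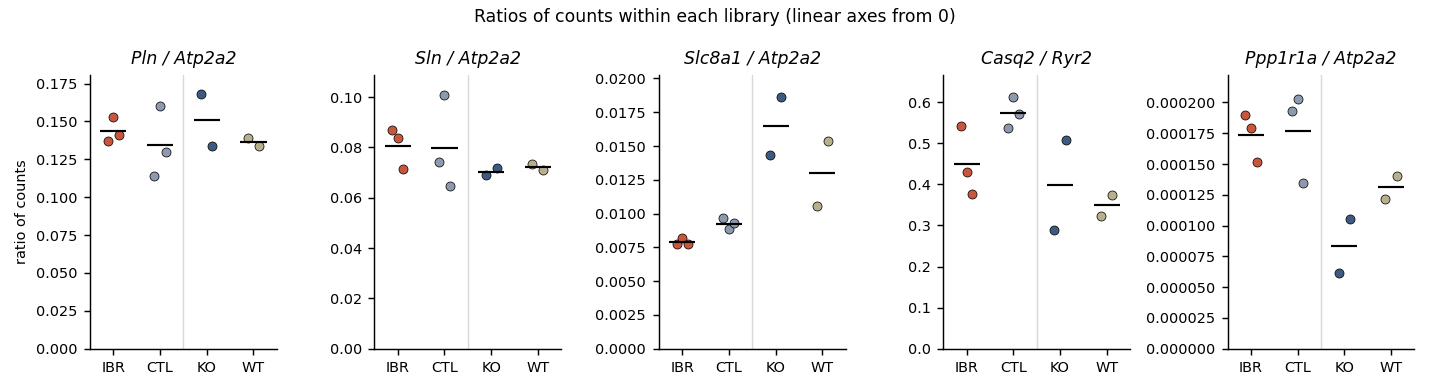
Ratio of raw counts of 2 genes within each library (vertical, linear from 0), by group; points are libraries and bars are group means. Sln to Atp2a2 lies between 0.0646 and 0.101 in every library, and Slc8a1 to Atp2a2 is lower in the 3 IBR libraries than in the 3 CTL libraries.

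The genotype effect (KO minus WT) minus the drug effect (IBR minus CTL) was negative for all 10 genes, with a median of -0.74 on the log2 scale, where 47.3% of all genes were negative, and 0 of 10 were called, where 0.026% of all genes were. By unadjusted p under 0.05 there were 2 of 10, Ppp1r1a and Casq2, chosen here for those values, where 9.79% of all genes were. Ppp1r1a differed by -1.53 (SE 0.42, adjusted p = 0.34) and Casq2 by -0.68 (SE 0.30, adjusted p = 0.499). DESeq2 also called 0 of 10. Without KO26, which leaves 1 library labelled KO, 6 of 10 were called, where 9.67% of all genes were.

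Other genes of calcium cycling were given by a list of 70 symbols covering related pumps and channels, junctional proteins, kinases, phosphatases, phosphodiesterases and calcium channels. Of these, 69 were in the files and 68 were tested, and Ryr1 was not tested (0 to 0.929 CPM). With ibrutinib 0 of 68 were called by edgeR or by DESeq2, 5 had an unadjusted p under 0.05, a share near the 5.52% of all genes, and the median log2 difference was -0.11. All 5 were positive, and the 3 with the smallest p are given here. Atp2b4, a calcium pump of the cell surface, had 73.1, 55.0 and 80.4 CPM in IBR, against 33.5, 34.1 and 55.7 CPM in CTL, a log2 difference of 0.76 (SE 0.21, adjusted p = 0.823). Itpr2, an inositol trisphosphate receptor that releases calcium in many cell types, had 35.9, 30.0 and 39.7 CPM in IBR, against 23.0, 24.6 and 30.7 CPM in CTL, a log2 difference of 0.43 (SE 0.15, adjusted p = 0.823). Its relative Itpr1 differed by 0.33 (SE 0.13, adjusted p = 0.823). For Atp2b4 and Itpr2, IBR2 lay just under CTL3 and the groups overlapped. Fibroblast markers summed to 5233, 3430 and 5610 CPM in IBR, against 2516, 2374 and 3581 CPM in CTL, with 10 of 10 positive, 0 called and a median log2 difference of 0.76. Epicardial and mesothelial markers were positive in 6 of 6 (median 0.67), macrophage and leukocyte markers in 10 of 10 (median 0.44) and endothelial markers in 7 of 8 (median 0.40), with 0 called in each list. Smooth muscle and pericyte markers were positive in 4 of 8 (median 0.01). Cardiomyocyte markers were negative in 9 of 11 (median -0.17) and atrial muscle markers in 7 of 9 (median -0.12), again with 0 called. The part of these lists was not tested. Among negative differences the smallest p were those of Hspb6, Calm3 and Jsrp1. Hspb6, a small heat shock protein that is a target of protein kinase A, had 321, 362 and 367 CPM in IBR, against 479, 538 and 502 CPM in CTL. The groups did not overlap, and the log2 difference was -0.53 (SE 0.26, adjusted p = 0.823). Hspb6 and Calm3 were among 7 of the 69 genes with every IBR library below every CTL library, where 7.55% of all tested genes were. Calm3, 1 of the calmodulin genes, differed by -0.26 (SE 0.13, adjusted p = 0.823) and Jsrp1, a junctional protein gene with few reads, by -1.31 (SE 0.68, adjusted p = 0.823).

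In the libraries labelled KO, 2 of the 68 were called, a share near the 2.21% of all genes called in either direction. Both calls were lower, where 0.898% of all genes were called lower. The median log2 difference was -0.29 with 44 negative and 24 positive values. Called were Atp2a1, the pump of fast skeletal muscle, and Camk2a, a relative of Camk2d best known from brain. Atp2a1 had 3.89 and 2.49 CPM in KO26 and KO337, against 9.25 and 6.16 CPM in WT, a log2 difference of -1.29 (SE 0.27, adjusted p = 0.0426). Camk2a had 52.8 and 26.2 CPM in KO26 and KO337, against 90.2 and 85.8 CPM in WT, a log2 difference of -1.16 (SE 0.25, adjusted p = 0.0473). Both were lower in KO337 than in KO26. Of the 68 genes, 27 were called without KO26, where 24.3% of all genes were, and 0 when any other single library was left out. Reads from stretches that these genes share with Atp2a2 and Camk2d could have been split or lost. Other relatives of the 10 genes were not called. Camk2g differed by -0.35 (SE 0.17, adjusted p = 0.227), Casq1, the skeletal calsequestrin, by -1.05 (SE 0.42, adjusted p = 0.149), and Jph2, which anchors the reticulum to the surface membrane, by -0.63 (SE 0.28, adjusted p = 0.185). For Casq1 the groups overlapped, with KO26 at 19.0 CPM between WT338 at 16.8 and WT35 at 41.4 CPM. Mrln, whose micropeptide inhibits the pump in skeletal muscle, had 1.68 and 0.679 CPM in KO26 and KO337, against 2.28 and 1.45 CPM in WT, a log2 difference of -0.68 (SE 0.47, adjusted p = 0.39), and the groups overlapped. Fkbp1b, which encodes the RyR2-binding protein calstabin 2, ran the other way at low levels, with 2.09 and 3.71 CPM in KO26 and KO337, against 0.890 and 0.629 CPM in WT, a log2 difference of 1.92 (SE 0.55, adjusted p = 0.0822).

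Promoter sequences from RefSeq (GRCm38.p6, 250 bases before to 50 after the gene start, a later build than the mm9 of the counts) matched 6 of the 10 genes. The windows of Pln, Casq2, Hrc and Ryr2 are shown because these uptake and release genes lay below WT together while their start regions differ in composition, at 36%, 44.7%, 58.7% and 65.3% G and C, around the median of 52.7% over all promoters. They lie at chr10:53337436-53337735 (plus strand), chr3:102086165-102086464 (plus strand), chr7:45335019-45335318 (plus strand) and chr13:12106896-12107195 (minus strand), printed 5′ to 3′ along the gene. Capitals mark matches on either strand to 4 motifs, chosen with the sequences in view. The MEF2-type motif, bound by factors that act in muscle, was searched as CTAAAAAT. The motif type of the GATA factors was searched as AGATAA, while the E box was read with the letters CAGCTG. For the box near which transcription often starts, TATAAA was used.
Pln: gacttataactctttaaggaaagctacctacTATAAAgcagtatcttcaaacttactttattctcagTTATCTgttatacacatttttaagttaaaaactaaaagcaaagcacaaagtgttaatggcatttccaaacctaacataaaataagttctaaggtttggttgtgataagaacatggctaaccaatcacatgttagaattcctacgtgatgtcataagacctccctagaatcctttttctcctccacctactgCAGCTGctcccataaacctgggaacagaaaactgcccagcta
Casq2: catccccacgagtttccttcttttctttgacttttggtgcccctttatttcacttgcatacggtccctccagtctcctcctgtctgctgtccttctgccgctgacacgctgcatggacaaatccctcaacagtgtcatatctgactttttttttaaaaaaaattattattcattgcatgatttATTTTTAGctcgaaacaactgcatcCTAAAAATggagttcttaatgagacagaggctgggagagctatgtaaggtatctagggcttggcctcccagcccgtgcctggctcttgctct
Hrc: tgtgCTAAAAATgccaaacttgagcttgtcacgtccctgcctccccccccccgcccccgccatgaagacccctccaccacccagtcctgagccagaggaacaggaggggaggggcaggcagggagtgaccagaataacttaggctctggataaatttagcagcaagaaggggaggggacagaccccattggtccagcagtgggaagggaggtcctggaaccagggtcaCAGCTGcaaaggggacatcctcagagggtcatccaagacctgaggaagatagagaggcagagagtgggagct
Ryr2: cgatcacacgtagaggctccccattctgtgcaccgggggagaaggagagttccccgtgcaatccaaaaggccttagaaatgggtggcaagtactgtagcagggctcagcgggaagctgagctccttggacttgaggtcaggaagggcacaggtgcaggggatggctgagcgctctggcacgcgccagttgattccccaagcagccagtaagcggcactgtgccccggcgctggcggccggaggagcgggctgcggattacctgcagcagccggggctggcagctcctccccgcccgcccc
Casq2 held CTAAAAAT once on each strand within 67 bases before the gene start, and Hrc held it 246 bases before the start, while 1.11% of all 32851 promoters held it. Pln and Slc8a1 held AGATAA (11.2% of all promoters), Pln and Hrc held CAGCTG (16.3%), and Pln held TATAAA (13.6%), 219 bases before the start. No match overlapped another. Ryr2 and Camk2d held none of the 4 in these windows. A match is a description of these letters and not a shown binding site.

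Genes whose levels ran most like those of Ppp1r1a, Sln and Casq2 were looked for over the 10 libraries, by the smallest root mean square difference of log2 CPM after centring within each experiment, among named genes with a mean log2 CPM of at least 1. Nearest to Sln were Csrp3 (0.07), Tnnt2 (0.10) and Kif6 (0.10), where the median gene lay at 0.46. Csrp3 encodes a muscle LIM protein and Tnnt2 cardiac troponin T. Nearest to Casq2 were Pstpip2 (0.06), Myom1 (0.06), a sarcomere protein gene, and Mettl22 (0.07), with the median gene at 0.39. Ppp1r1a had no neighbour as close, with Noct at 0.16, Atp8a2 at 0.18 and Olfm1 at 0.18, and the median gene at 0.56. Among the 10 genes the closest pair was Ryr2 with Atp2a2 (0.13) and the farthest Ppp1r1a with Camk2d (0.40). Ppp1r1a had only 20 to 114 counts per library, so counting error adds to all of its distances, by an amount that was not tested. Noct, which encodes a circadian-regulated protein, had 57.1 and 59.0 CPM in KO26 and KO337, against 125 and 183 CPM in WT.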

How the data were processed

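The authors deposited 1 table of unnormalized gene counts per library. Per the labels' protocols a directional poly(A) kit was used, but per the file names strand was not used in counting, so antisense overlaps stay unresolved. The submitters' processing notes name mm9, STAR, HTSeq and edgeR; their roles, versions and annotation are not given there. Rows of unassigned reads stayed out of library sizes and tests, with 13.5% to 19.9% of records per library in no feature. Of 37583 identifiers 32860 (87.4%) were matched to symbols. Exon lengths came from GENCODE vM21, of a later build than mm9.

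Groups came from the sample titles. Genes were kept by filterByExpr (minimum count 10, minimum total 15), which left 15364. Scaling used TMM (trimmed mean of M values). A model of group means over all 10 libraries was fitted by quasi-likelihood in edgeR 4.0.16 (limma 3.58.1, R 4.3.3), with robust shrinkage and 6 residual degrees of freedom, and a common biological coefficient of variation of 0.221. P-values were adjusted by Benjamini-Hochberg over all genes tested, and called means an adjusted p under 0.05. Standard errors were derived from each log2 fold change and its F statistic. Log2 CPM used a prior count of 2. A level of 3 counts corresponds to 0.136 to 0.216 CPM, for counting error only. The fit was also run on counts simulated with its own dispersions and with no outlying library. That run therefore says nothing on how a library such as KO337 affects the fit. Alternatives were DESeq2 1.42.0, other scalings and filters, fits of 2 groups, a replicate block and leaving out each library. The 10 genes and all lists were chosen with earlier results of these data known. Named were the 10 genes, called genes or the 3 smallest p per direction in the wider list, fixed relatives (of which Strit1 was not analysed here), and the 3 nearest genes by pattern to 3 of the 10. The values of 1 gene of the wider list are not reported here.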

Additional observations from a re-analysis of the deposited data

How the results depend on the processing

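For IBR against CTL, 0 of the 10 genes and 0 of the 68 others were called under all 18 alternatives, and 164 of 180 values for single genes kept their direction. The 16 that turned reached at most 0.12 on the log2 scale. With total counts Sln was 0.0037 and Camk2d 0.045, without a filter Camk2d was 0.0063, and scaled to cardiomyocyte markers Atp2a2 was 0.043, Sln 0.035, Camk2d 0.089 and Trdn 0.0053. Leaving out 1 library each gave -0.077 to 0.17 for Pln, -0.27 to 0.12 for Sln, -0.16 to 0.026 for Camk2d and -0.30 to 0.013 for Trdn. The numbers of CTL and IBR libraries were not taken as pairs. Same-numbered libraries deviated from their group means with correlations of 0.0159, 0.162 and 0.0321. CTL2 correlated best with its own number, and CTL1 and CTL3 did not. With 3 libraries per group such correlations cannot exclude that the numbers mark pairs. The fit with the replicate block called 0 genes.

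For KO against WT the count among the 10 genes was 1, and it was 2 without a filter, 5 with DESeq2, 0 with only these 4 libraries and 0 to 10 leaving out 1 library. Among the others it was 2, and it was 0 with total counts, 27 scaled to cardiomyocyte markers, 11 without a filter, 12 with DESeq2, 0 with only these 4 libraries and 0 to 27 leaving out 1 library. Over all genes 339 were called, 1830 by DESeq2, 1146 without a filter, 7255 scaled to the markers, 0 with only these 4 libraries and 14 to 3933 leaving out 1 library. Of these calls 59.3% were higher, 81.7% with total counts and 98.9% scaled to the markers. Total counts moved the median of all genes to 0.23. The directions that turned, all scaled to the markers, were those of Pln (0.013), Slc8a1 (0.19) and Camk2d (0.35), and in the difference of effects those of Slc8a1 (0.37) and Camk2d (0.26). In the difference of effects 0 to 6 of the 10 genes were called leaving out 1 library. The cause was not tested. Leaving out 1 library, the log2 difference of ratios for KO against WT ran from -0.03 to 0.30 for Pln to Atp2a2 and from -0.27 to 0.54 for Casq2 to Ryr2, both turning sign. For IBR against CTL it ran from -0.0021 to 0.24 for Pln, -0.11 to 0.21 for Sln and -0.19 to 0.10 for Ppp1r1a, each to Atp2a2. The other 5 ratio differences kept their direction. Counts of 20 and 21 limit Ppp1r1a.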

Other observations

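Some listed genes, of the calcium store and of other lists, differed in level between the drug experiment and the genotype experiment. Casq1 had 1.23, 0.919 and 0.917 CPM in IBR and 1.08, 1.08 and 0.906 CPM in CTL, and 19.0 and 9.15 CPM in the libraries labelled KO and 41.4 and 16.8 CPM in WT. Atp2a1 ran the other way, with 33.5, 36.1 and 28.7 CPM in IBR and 36.1, 46.0 and 45.3 CPM in CTL, and 3.89 and 2.49 CPM in the libraries labelled KO and 9.25 and 6.16 CPM in WT. The sarcomere gene Ttn had 2643, 4074 and 2925 CPM in IBR and 3053, 3390 and 2870 CPM in CTL, and 6458 and 3246 CPM in the libraries labelled KO and 8774 and 9276 CPM in WT. The ventricular marker Myl3 ranged from 88.4 to 173 CPM in the drug experiment and from 5.60 to 32.4 CPM in the genotype experiment. These genes are examples, and how many of all genes differ as much was not counted. The experiments share no group, so animals, handling and library preparation cannot be told apart there, and no test was made.

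Ryr3, a release channel of smooth muscle and brain, had 16.4 and 30.4 CPM in KO26 and KO337, against 9.10 and 13.1 CPM in WT, a log2 difference of 1.08 (SE 0.47, adjusted p = 0.183) by edgeR's quasi-likelihood test. Ryr1, the skeletal release channel, was at 0.929 CPM in KO26 and at most 0.308 CPM in any other library. Both were chosen after their values were seen.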
